A study of Mus musculus with 12 samples.

Results

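The 9 genes described here export sterols from liver cells or make, remodel and transfer the phospholipids that travel with them. They were taken by name from a table of 55385 genes. All 9 were in the table, and all 9 had a mean of at least 1 TPM over the 12 mice, the level required of the 16378 genes tested. TPM is a read count divided by transcript length and scaled to the same total in each library, so levels can be compared between genes. The members are 4 ABC sterol exporters (Abca1, Abcg1, Abcg5 and Abcg8), 2 genes of phospholipid remodelling and transfer (Lpcat3 and Pltp) and 3 genes of phospholipid synthesis (Pemt, Pcyt1a and Pcyt2).

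Sterols leave the hepatocyte by separate routes. ABCA1 loads cholesterol and phospholipid onto apolipoprotein A-I at the blood-facing membrane, whereas ABCG5 and ABCG8 form a single heterodimer that secretes sterols into bile across the canalicular membrane. Transcription of several of these genes, Lpcat3 and Pltp among them, is known to respond to LXR, a nuclear receptor for oxysterols. Phosphatidylcholine is made from CDP-choline, with PCYT1A at the regulated step, or in liver also by PEMT, which methylates phosphatidylethanolamine. PCYT2 makes the CDP-ethanolamine from which phosphatidylethanolamine is built.

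RNA-Seq was performed on whole liver of male C57BL/6 mice, aged 7 weeks, 4 in each of 3 groups. Each mouse received 500000000 pfu of adenovirus in total and was killed on day 7. Control mice (Ad-Ctrl) received Lac together with pAdV5, knockdown mice received an shRNA virus against the mouse lncRNA mGULL (Ad-shmGULL) together with pAdV5, and rescue mice received Ad-shmGULL together with a virus expressing the human lncRNA hGULL. All 3 groups, controls included, therefore carried adenovirus, and no uninfected liver was among the samples. The study's methods call the injection intravitreal for these mice and retro-orbital in general, and the route was not resolved here. The levels of mGULL and hGULL were not analysed here, so the knockdown was not checked from these values.

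Liver identity was clear in each library, with Alb at a mean of 59560 TPM in controls, 59760 after knockdown and 51120 in the rescue. Libraries had 15525 to 16929 genes above 1 TPM, and their 20 highest genes held 24.65% to 34.24% of all TPM. Read depth is not recoverable from TPM, and precision is given by the spread between the 4 mice of a group. Over all tested genes, the log2 fold change had a median of 0.09 in knockdown minus control, 0.09 in rescue minus knockdown and 0.17 in rescue minus control, and values relative to these medians are given where they matter. In whole tissue, fewer cells of a type and less RNA per cell cannot be told apart.

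Abcg5 and Abcg8 lie on opposite strands of chromosome 17 of GRCm38.p6 (mm10), with start sites head to head. The start site of Abcg5, on the minus strand, is at 84683011, and a start site of Abcg8, on the plus strand, is at 84683121, a distance of 110 bases. Another Abcg8 start site, at 84676302, is where the annotated gene begins, and it lies within Abcg5. The stretch between 84683011 and 84683121 is shown from RefSeq, plus strand. It lies upstream of both of those start sites, and the levels of the genes are compared below. Capitals mark the letters AGATAA, which the GATA family of factors is known to bind, read here on the minus strand.

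Abcg5 to Abcg8, chr17:84683012-84683120: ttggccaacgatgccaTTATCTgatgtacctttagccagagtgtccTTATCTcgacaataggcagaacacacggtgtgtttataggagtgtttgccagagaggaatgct

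Of all 32851 promoter windows of RefSeq (250 bases before to 50 after a start site), 11.2% hold AGATAA on either strand. This motif was added after the sequence had been seen. Promoter windows were found for 7 of the 9 members, 11 windows in all, and Abcg1 and Pcyt2 had none. The bases before the start site of Pcyt1a on the plus strand of chromosome 16 are shown because they hold TCACCCCAC, an SREBP-type sequence present in 0.551% of all windows, and the GC box GGGCGG, present in 35.7%; both are in capitals.

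Pcyt1a, chr16:32430671-32430920: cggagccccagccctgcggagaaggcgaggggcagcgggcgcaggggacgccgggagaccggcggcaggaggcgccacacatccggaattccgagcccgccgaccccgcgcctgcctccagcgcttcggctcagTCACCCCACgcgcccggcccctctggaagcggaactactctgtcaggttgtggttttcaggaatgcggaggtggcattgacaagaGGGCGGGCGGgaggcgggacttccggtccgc

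The SREBP-type sequence begins 116 bases before the Pcyt1a start site, and the same site falls in 2 overlapping windows of that gene. The paired GC boxes share bases with each other. On both strands, the direct repeat bound by LXR with a spacer of 4 bases was found in 0 of the 11 member windows and in 0.0152% of all windows. Its single element AGGTCA was in 1 member window and 16.3% of all, the full cAMP response element TGACGTCA in 0 member windows and 1.79% of all, and its shorter form TGACG, which lies within the full element, in 1 and 20.8%. The E box CACGTG was in 1 member window, that of Abca1, against 7.15% of all, and the CCAAT box was in 5 against 37.4%. These are matches of letters in short windows and describe no binding.

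Among the 9 control levels, Pcyt2 had a mean of 214.8 ± 5.313 TPM (SD, n = 4 mice here and throughout), followed by Pemt at 190.3 ± 22.65, Abca1 at 163.9 ± 18.51, Abcg8 at 144.0 ± 11.75 and Abcg5 at 131.7 ± 13.67. Lpcat3 at 79.89 ± 10.66, Pltp at 57.3 ± 19.79 and Pcyt1a at 55.7 ± 4.843 were lower, and Abcg1 was lowest at 13.64 ± 3.535 TPM. In this order the control ranges of neighbouring genes overlapped except between Abcg5 and Lpcat3 and between Pcyt1a and Abcg1. After knockdown Lpcat3 stood above Abcg8, and Pltp above Abcg5, but those neighbours overlapped between mice. In the rescue Abca1 stood directly below Pcyt2, with a range that overlapped that of Pemt below it. Pcyt2 was highest and Abcg1 lowest in each of the 3 groups.

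**Figure D1:**
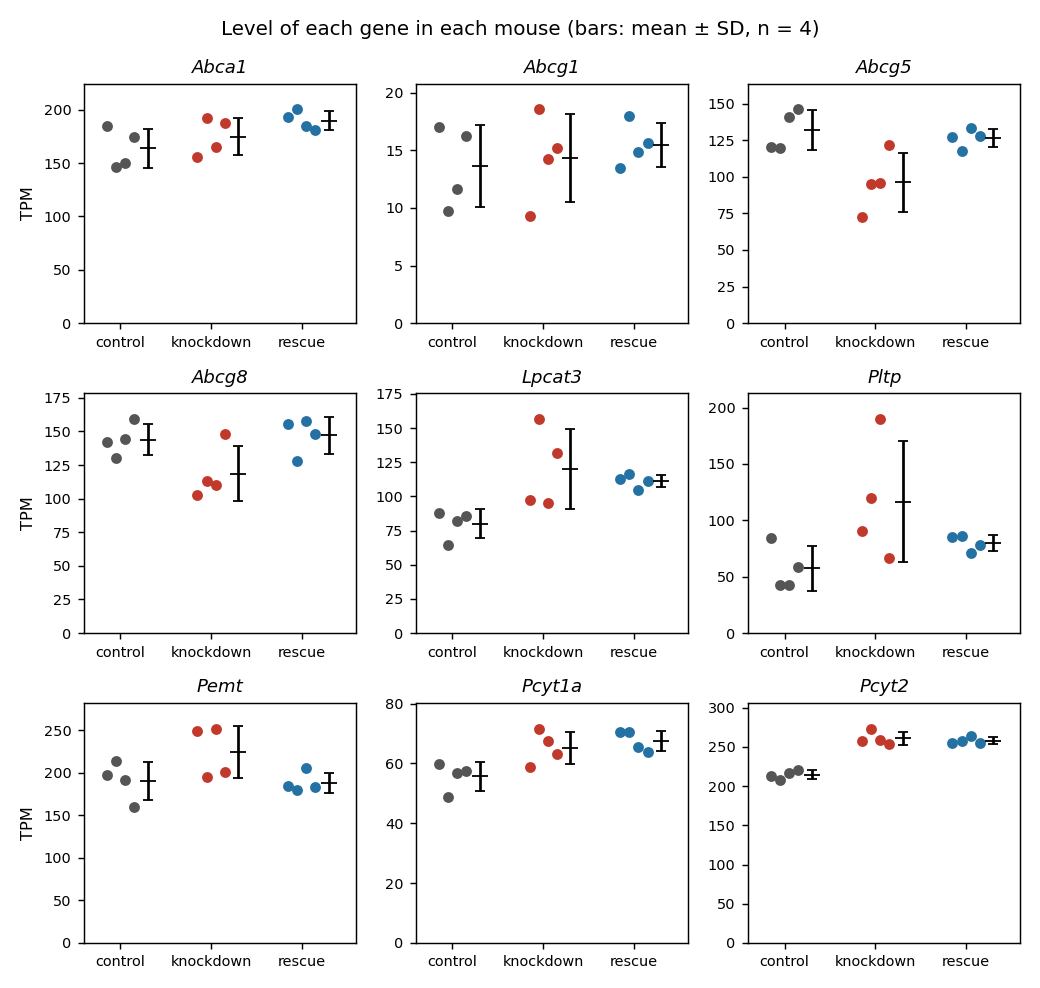
TPM of each of the 9 genes (vertical axis, from 0) in each mouse of the control, knockdown and rescue groups, with bars for mean ± SD of 4 mice. Control and knockdown points of Pcyt2 are apart, 208.5 to 221.0 against 253.9 to 273.0 TPM, and 3 of the 4 knockdown points of Abcg5 lie below all its controls.

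The first comparison, knockdown minus control, asks what loss of mGULL changed. Of the 9 members 1, Pcyt2, passed an adjusted p under 0.05 in limma with Benjamini-Hochberg adjustment over all tested genes, beside 3.23% of all tested genes. A fold threshold, log2 beyond 0.5 at an unadjusted p under 0.05, was met by 2 members, Lpcat3 and Pltp, both higher, beside 7.65% of all tested genes in either direction and 5.35% higher. An unadjusted p under 0.05 alone was reached by 6 members, 4 higher and 2 lower, beside 20.2% of all tested genes, 15.4% higher and 4.8% lower. The lower pair were Abcg5 and Abcg8. Groups did not overlap for 2 members, Lpcat3 and Pcyt2, both higher, beside 8.99% in either direction and 6.93% higher. The median log2 fold change was 0.23 over the members and 0.09 over all tested genes.

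Among the ABC exporters, the heterodimer partners had lower means after knockdown while Abca1 and Abcg1 did not. Abcg5 (ENSMUSG00000040505.13, chromosome 17, 84658174 to 84683011) encodes a subunit of the biliary sterol pump. Its controls were at 120.1, 120.0, 140.7 and 146.1 TPM, its knockdown mice at 72.65, 94.96, 95.92 and 121.7, and its rescue mice at 127.0, 117.7, 133.2 and 128.1. Of the 4 knockdown mice, 3 were below all controls, and knockdown 4 fell within the control range. The log2 fold change was -0.47 (SE 0.13, 95% interval -0.75 to -0.18), a mean 27.5% below control in the fit, with an adjusted p of 0.0704 in limma. Relative to the median of all genes it was -0.55, and the exact two-sided permutation test of 4 mice against 4, whose smallest possible p is 0.0286, gave 0.0857. This value missed the threshold as fitted and passed it under 4 of 22 alternatives, with an adjusted p of 0.0322 in limma under median-of-ratios scaling and 0.0294 without knockdown 4.

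Abcg8 (ENSMUSG00000024254.15, chromosome 17, 84676302 to 84700333), the partner subunit, also had its lowest values after knockdown. Controls had 141.9, 130.6, 144.1 and 159.2 TPM, knockdown mice 102.7, 113.5, 110.0 and 148.4, and rescue mice 155.7, 127.7, 157.9 and 147.9. Again 3 knockdown mice were below all controls and knockdown 4 was not. Its log2 fold change was -0.29 (SE 0.12, 95% interval -0.54 to -0.04, adjusted p = 0.181 in limma), and none of the 22 alternatives brought the adjusted p under 0.05.

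Abca1 (ENSMUSG00000015243.4, chromosome 4, 53030789 to 53159988), the apolipoprotein A-I lipidating pump, had 184.4, 146.2, 150.4 and 174.4 TPM in controls, 155.3, 192.0, 164.8 and 187.4 after knockdown and 192.8, 200.4, 184.7 and 181.2 in the rescue. The control and knockdown mice overlapped, and 3 rescue mice were above all controls. The knockdown difference was 0.10 on the log2 scale (95% interval -0.11 to 0.30, adjusted p = 0.629 in limma) and became -0.02 under median-of-ratios scaling. Abcg1 (ENSMUSG00000024030.7, chromosome 17, 31057694 to 31117984), which passes sterol to mature HDL and is prominent in macrophages, had 17.02, 9.715, 11.62 and 16.21 TPM in controls, 9.281, 18.56, 14.29 and 15.2 after knockdown and 13.45, 17.98, 14.82 and 15.65 in the rescue. Within controls and within knockdown mice its highest value was well above its lowest, and the 3 groups overlapped. The difference was 0.06 (95% interval -0.38 to 0.50, adjusted p = 0.902 in limma) and turned to -0.04 under median-of-ratios scaling and -0.02 under quantile normalization.

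Lpcat3 and Pltp, which remodel and transfer phospholipids, had higher means after knockdown. Lpcat3 (ENSMUSG00000004270.13, chromosome 6, 124663094 to 124704716) encodes an acyltransferase that places polyunsaturated chains into lysophospholipids. Controls were at 87.49, 64.23, 82.24 and 85.58 TPM, knockdown mice at 97.1, 156.5, 95.41 and 131.5, and rescue mice at 112.5, 116.2, 105.0 and 111.2. Every knockdown and every rescue mouse was above every control. The fold was 1.48 after knockdown (log2 0.56, SE 0.15, 95% interval 0.24 to 0.89; 0.475 relative to the median of all genes), with an adjusted p of 0.061 in limma and an exact permutation p of 0.0286, the smallest that 4 against 4 can give. The adjusted p came under 0.05 in 6 of 22 alternatives, 0.0361 with median-of-ratios scaling among them.

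Pltp (ENSMUSG00000017754.13, chromosome 2, 164839518 to 164857708), the plasma phospholipid transfer protein, was at 84.67, 43.06, 42.46 and 59.03 TPM in controls, 90.44, 119.7, 189.8 and 66.47 after knockdown and 85.12, 86.4, 71.17 and 78.13 in the rescue. Control 1 lay above knockdown 4, so the groups overlapped, and knockdown 3 was the highest of the 12 mice. The fold was 1.95 (log2 0.96, SE 0.28, 95% interval 0.35 to 1.57, adjusted p = 0.0795 in limma), and the exact permutation p was 0.0571. The adjusted p came under 0.05 in 2 of 22 alternatives, with 0.0338 in limma without control 1 and 0.0428 without knockdown 4. Without knockdown 3 the log2 fold change was 0.69, with an adjusted p of 0.109 in limma.

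Pcyt2 (ENSMUSG00000025137.15, chromosome 11, 120610062 to 120617947), the rate-controlling enzyme of the CDP-ethanolamine branch, rose after knockdown. It had 213.0, 208.5, 216.5 and 221.0 TPM in controls, 257.8, 273.0, 259.2 and 253.9 after knockdown and 255.7, 258.1, 264.1 and 254.6 in the rescue. The controls formed a narrow range below every mouse of the other groups, and the knockdown and rescue ranges overlapped. The fold was 1.21 (log2 0.28, SE 0.06, 95% interval 0.15 to 0.41) with an adjusted p of 0.026 in limma and an exact permutation p of 0.0286. The rise was 0.19 relative to the median of all genes. Its sign held in 22 of 22 alternatives and its adjusted p stayed under 0.05 in 13, with a range of 0.0252 to 0.21, the highest under median-of-ratios scaling where the log2 fold change was 0.17. Without control 2, control 3, control 4 or knockdown 2, the adjusted p in limma was 0.0775, 0.074, 0.0574 and 0.0655.

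Pcyt1a (ENSMUSG00000005615.15, chromosome 16, 32430921 to 32475065), its counterpart in the CDP-choline branch, had 59.85, 48.72, 56.65 and 57.58 TPM in controls, 58.98, 71.54, 67.4 and 63.04 after knockdown and 70.46, 70.5, 65.57 and 63.98 in the rescue. Knockdown 1 was within the control range, whereas the 4 rescue mice were above all controls. The knockdown difference was 0.23 (SE 0.08, 95% interval 0.04 to 0.41, adjusted p = 0.153 in limma). Pemt (ENSMUSG00000000301.16, chromosome 11, 59970614 to 60046561) had 197.0, 213.7, 191.2 and 159.5 TPM in controls, 249.1, 195.0, 251.3 and 200.3 after knockdown and 184.1, 179.1, 205.0 and 183.3 in the rescue. Knockdown 1 and knockdown 3 were the highest mice, and the other knockdown mice lay within the control range. Its difference was 0.23 (SE 0.11, 95% interval -0.01 to 0.47, adjusted p = 0.263 in limma).

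**Figure D2:**
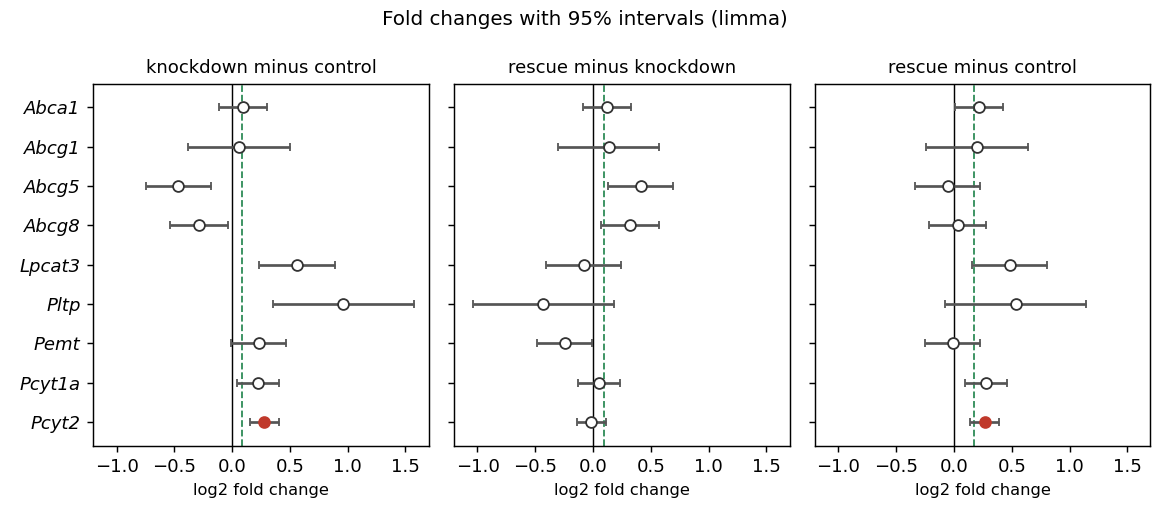
Log2 fold change of each gene (horizontal axis) with its 95% interval from limma in the 3 comparisons. Filled points have an adjusted p under 0.05 (Pcyt2, in knockdown minus control and rescue minus control), and the dashed line is the median of all tested genes (0.09, 0.09 and 0.17).

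The second comparison, rescue minus knockdown, asks what hGULL changed on top of the knockdown. An adjusted p under 0.05 in limma was reached by 0 of the 9 members, beside 0% of all tested genes, whose smallest adjusted p was 0.117. An unadjusted p under 0.05 was reached by 3 members, Abcg5 and Abcg8 higher and Pemt lower, beside 10.7% of all tested genes, 9.32% higher and 1.4% lower. The fold threshold with an unadjusted p was met by 0 members, beside 3% of all tested genes, and groups were apart for 0 members, beside 6.38%. The members' median was 0.05 against 0.09 for all tested genes.

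Abcg5 was 1.33-fold higher in the rescue than after knockdown (log2 0.41, SE 0.13, 95% interval 0.13 to 0.69, adjusted p = 0.374 in limma), with 3 of 4 rescue mice above all knockdown mice. For Abcg8 the fold was 1.25 (log2 0.32, SE 0.12, 95% interval 0.07 to 0.57, adjusted p = 0.404 in limma), with 2 rescue mice above all knockdown mice. Pemt had a log2 difference of -0.24 (95% interval -0.48 to -0.01, adjusted p = 0.46 in limma), and 3 rescue mice were below all knockdown mice. Pltp differed by -0.43 (95% interval -1.04 to 0.18), Lpcat3 by -0.08 (-0.41 to 0.25) and Pcyt2 by -0.02 (-0.14 to 0.11), with adjusted p of 0.583, 0.855 and 0.932 in limma. As fitted, the intervals of Pcyt2 and Lpcat3 did not reach the size of their differences between knockdown and control. That of Pltp did. Under median-of-ratios scaling Pcyt2 was 0.17 in knockdown minus control and -0.109 in rescue minus knockdown. Lpcat3 was 0.452 and -0.173 there. Intervals are not given for that scaling, so the reading holds for the values as fitted. Without knockdown 3 the Pltp difference was -0.16. This comparison and the first share the knockdown mice, so opposite signs of Abcg5 and Abcg8 in them are not separate measurements.

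In the third comparison, rescue minus control, 1 member passed an adjusted p under 0.05 in limma, beside 2.15% of all tested genes, and it was again Pcyt2 (fold 1.2, log2 0.26, SE 0.06, 95% interval 0.14 to 0.39, adjusted p = 0.0441). Relative to the median of all genes its difference was 0.09. It was not past the threshold with median-of-ratios scaling (log2 0.06, adjusted p = 0.753 in limma), with quantile normalization (0.13, 0.326) or with rescaling to the total without the 20 highest genes (0.17, 0.176), and it was past it in 8 of 22 alternatives. An unadjusted p under 0.05 was reached by 4 members, all higher (Abca1, Lpcat3, Pcyt1a and Pcyt2), beside 25.3% of all tested genes in either direction and 24.2% higher. Groups were apart for 3 members, Lpcat3, Pcyt1a and Pcyt2, all higher, beside 22.3% in either direction and 21.4% higher. The fold threshold was met by 0 members, beside 7.49%.

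Lpcat3 was 1.4-fold above control in the rescue (log2 0.48, SE 0.15, adjusted p = 0.0897 in limma) and Pcyt1a 1.21-fold (log2 0.28, SE 0.08, adjusted p = 0.0845). The corresponding log2 value was 0.22 for Abca1 (adjusted p = 0.179 in limma) and 0.53 for Pltp (adjusted p = 0.253). Under median-of-ratios scaling these values were 0.28 for Lpcat3, 0.08 for Pcyt1a, 0.01 for Abca1 and 0.33 for Pltp. For the pair with lower means after knockdown, the log2 differences between rescue and control were -0.05 for Abcg5 (95% interval -0.34 to 0.23) and 0.03 for Abcg8 (95% interval -0.22 to 0.28). Pemt differed by -0.01 (95% interval -0.25 to 0.23). Relative to the median of all genes, these differences were -0.23 for Abcg5, -0.14 for Abcg8 and -0.19 for Pemt. Median-of-ratios scaling gave -0.26 for Abcg5 and -0.17 for Abcg8, and the members' median of 0.22 stood beside 0.17 for all tested genes.

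Ratios of members within a mouse do not depend on how a library was scaled. Abcg8 was above Abcg5 in each of the 12 mice. The log2 ratio of Abcg8 to Abcg5 was 0.13 ± 0.09 in controls, 0.31 ± 0.13 after knockdown and 0.22 ± 0.08 in the rescue (SD, n = 4), a ratio of 1.09, 1.24 and 1.16, and the ranges of the groups overlapped. Pemt over Pcyt1a, the methylation route against the CDP-choline route, had a log2 ratio of 1.77 ± 0.27, 1.77 ± 0.28 and 1.47 ± 0.14. For Pcyt1a over Pcyt2 it was -1.95 ± 0.11, -2.0 ± 0.09 and -1.93 ± 0.08, with overlapping ranges in the 3 groups. No test was run on the ratios.

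Levels of 4 pairs of members were compared across the 12 mice, with p from 100000 permutations and Benjamini-Hochberg adjustment over the 4 pairs. Abcg5 and Abcg8 varied together (Pearson r = 0.924, permutation p = 4e-05, adjusted 0.00016, and Spearman rho = 0.902, permutation p = 0.00016, adjusted 0.00064). As deviations from the group means r was 0.867 (permutation p = 0.00118, adjusted 0.0043), and without knockdown 1 and knockdown 2, the mice farthest from the median of Abcg5, r was 0.872. The annotated genes overlap by 6710 bases on opposite strands, beside the shared stretch shown above. Libraries were strand-specific, but the strand setting of the counting is not given in the sources used here, and reads of the overlap could not be told apart in an unstranded count. By RefSeq, Lpcat3 also overlaps Emg1 by 347 bases, Pltp overlaps Ctsa by 1515 and Pemt overlaps the lncRNA gene Gm38498 by 6186.

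Abca1 and Abcg1 also varied together (r = 0.844, permutation p = 0.00096, adjusted 0.00128, and rho = 0.657, permutation p = 0.0224, adjusted 0.0299), with r = 0.888 within groups (permutation p = 0.00215, adjusted 0.0043) and 0.748 without control 2 and control 3. By Pcyt2 the controls form a separate cluster from the other mice, so no pooled value is read for Pcyt1a and Pcyt2. Within groups their r was 0.594 (permutation p = 0.0991, adjusted 0.132) and their rho 0.664 (permutation p = 0.046, unadjusted). Pemt and Pcyt1a gave r = -0.0983 (permutation p = 0.758, adjusted 0.758), rho = -0.154 (permutation p = 0.635, adjusted 0.635) and -0.507 within groups (permutation p = 0.164, adjusted 0.164).

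**Figure D3:**
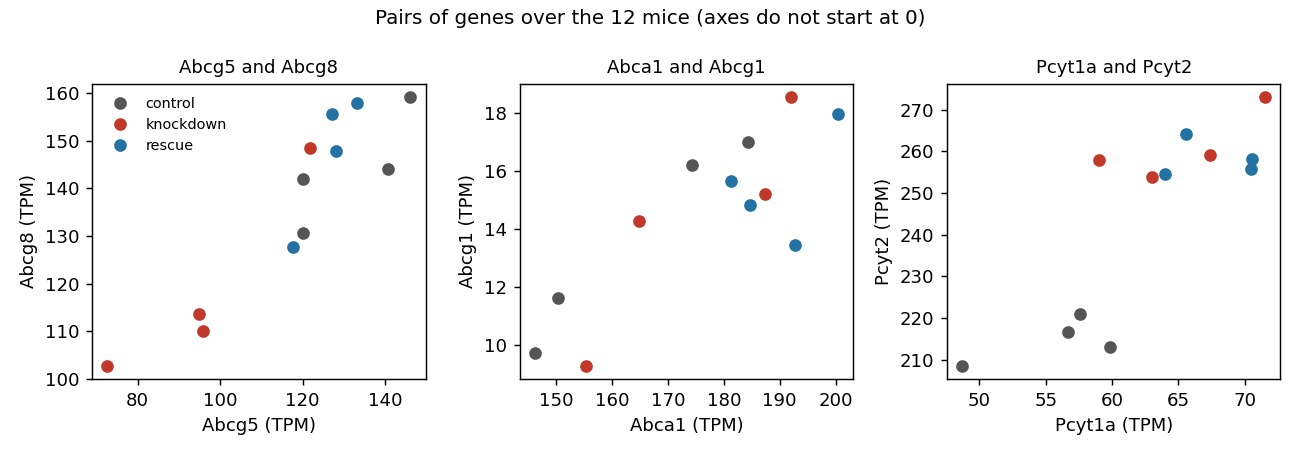
TPM of pairs of members, a point for each of the 12 mice coloured by group (axes do not start at 0). Abcg5 and Abcg8 lie along a line with r = 0.924, Abca1 and Abcg1 follow with r = 0.844, and the control mice are a separate cluster in Pcyt2.

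The genes whose level over the 12 mice was most like that of a member were sought among all tested genes, as Pearson r of log2(TPM + 1), without a test. For Abcg8 the most similar gene was Abcg5 (r = 0.924), and Os9, an endoplasmic reticulum lectin, was among the 3 most similar genes of both, with r = 0.938 for Abcg5 and 0.899 for Abcg8. Abcg5 was also close to Edem3 and Mbnl2 (both 0.942), and Abcg8 to Slc35e2 (0.906). For Abcg1 the closest were C1qb (r = 0.978), a complement component made by macrophages, P2ry13 (0.974) and Abcg3 (0.974). For Abca1 they were Snrpd3 (0.981), Zfp710 (0.971) and Txndc16 (0.961).

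Lpcat3 was closest to Clip1 (0.978), Rin2 (0.97) and Kif16b (0.97), and Pltp to the processed pseudogene Gm3571 (0.968), Rnf144a (0.939) and S100a16 (0.937). Pemt was closest to Adh5 (0.93), Slc25a47 (0.894) and Angptl6 (0.877). For Pcyt1a the nearest were Lipa (0.976), the lysosomal acid lipase, Kat5 (0.967) and Slc35f6 (0.965), and for Pcyt2 they were Lrrc28 (0.974), Gm36963 (0.96) and Enpep (0.952). All points share the same libraries, and no member other than Abcg5 stood among the 3 most similar genes of another.

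Other genes of these pathways were read from lists in the same fit. Of all tested genes, 3.23% passed an adjusted p under 0.05 in limma after knockdown. At an unadjusted p under 0.05, 15.4% were higher and 4.8% lower, and these shares stand beside the counts of each list below. Of 10 tested LXR receptors and partners, 0 passed an adjusted p under 0.05 in limma after knockdown, and 1 was higher and 1 lower at an unadjusted p under 0.05. Nr1h3, the LXRα gene, had 108.5, 107.7 and 112.0 TPM in control, knockdown and rescue (knockdown log2 -0.01, adjusted p = 0.975 in limma). Nr1h2, the LXRβ gene, had 32.48, 26.06 and 28.29 TPM (-0.32, adjusted p = 0.153). Rxra, the shared partner, had 273.5, 246.6 and 290.0 TPM (-0.15, adjusted p = 0.4).

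Among 12 other LXR-responsive genes, 3 were higher and 0 lower after knockdown at an unadjusted p under 0.05, and 1 rose past the adjusted threshold. This was Srebf1, the regulator of fatty acid synthesis, with 96.51 ± 15.74 TPM in controls, 159.1 ± 16.82 after knockdown and 134.9 ± 28.91 in the rescue (log2 0.72, SE 0.16, adjusted p = 0.0373 in limma). In rescue minus control 1 rose, Mlxipl, which encodes the carbohydrate-responsive factor ChREBP, with 148.4, 202.0 and 213.7 TPM in control, knockdown and rescue (log2 0.53, SE 0.12, adjusted p = 0.0441 in limma). The list's median log2 fold change after knockdown was 0.17, that of the LXR receptors and partners 0.07, and that of all tested genes 0.09.

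Of 17 tested other ABC lipid transporters, 6 were higher and 2 lower after knockdown at an unadjusted p under 0.05. Past the adjusted threshold, 1 rose and 1 fell. Abcd2, a peroxisomal importer of very long fatty acids, rose from 8.83 ± 2.74 TPM to 24.14 ± 10.56 (log2 1.31, SE 0.30, adjusted p = 0.0378 in limma) and was at 18.19 ± 6.062 in the rescue. Abca8b fell from 41.38 ± 3.569 to 30.21 ± 4.02 TPM (log2 -0.45, SE 0.10, adjusted p = 0.0324) and was at 42.34 ± 1.198 in the rescue. Abcb4, the canalicular phosphatidylcholine floppase, had 141.4, 148.2 and 170.7 TPM (knockdown log2 0.07, adjusted p = 0.781 in limma). In rescue minus control 1 member of the list rose, Abcb1a, with 3.32, 6.713 and 9.219 TPM in control, knockdown and rescue (log2 1.28, SE 0.23, adjusted p = 0.0381 in limma).

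Of 15 tested genes of HDL and reverse sterol transport, 2 were higher and 3 lower after knockdown at an unadjusted p under 0.05, and 1 fell past the adjusted threshold. This was Osbpl2, an oxysterol-binding protein, which went from 21.18 ± 1.269 to 13.94 ± 2.016 TPM (log2 -0.58, SE 0.10, adjusted p = 0.0143 in limma), with 17.96 ± 1.559 in the rescue. Apoa1, named after its values were seen, was also among the lower. It had 13770, 9160 and 9034 TPM in control, knockdown and rescue (knockdown log2 -0.60, adjusted p = 0.115 in limma). The other lower gene was Apom (-0.234, adjusted p = 0.141 in limma). The 2 higher were Apoa4 (0.817, adjusted p = 0.0873 in limma) and Lipg (0.489, adjusted p = 0.109 in limma). Apom, Apoa4 and Lipg were also named after their values were seen. Of 13 tested genes of acyl remodelling, 4 were higher and 3 lower after knockdown at an unadjusted p under 0.05, and 1 rose past the adjusted threshold. This was Pla2g6, a calcium-independent phospholipase, which went from 31.81 ± 4.985 to 45.24 ± 3.426 TPM (log2 0.51, SE 0.11, adjusted p = 0.0268 in limma). Pla2g6 was also higher in the rescue than in control, at 47.83 ± 1.911 (log2 0.59, adjusted p = 0.0381 in limma). Refits of these list calls, chosen after seeing the data, kept the sign in 22 of 22 alternatives. After knockdown the adjusted p was under 0.05 in 21 of the 22 for Osbpl2, 15 for Pla2g6, 10 for Srebf1 and for Abcd2 and 9 for Abca8b, and in rescue minus control in 8 for Mlxipl, for Abcb1a and for Pla2g6, where median-of-ratios and quantile scaling each brought it above 0.05. The HDL list had a median log2 fold change of -0.05 after knockdown and the acyl list 0.19.

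The remaining synthesis lists held 0 genes past an adjusted p under 0.05 in limma after knockdown. They were the CDP-choline and CDP-ethanolamine pathways (14 tested, 3 higher and 1 lower at an unadjusted p under 0.05), phosphatidylserine and phosphatidylinositol synthesis (8 tested, 1 higher) and methyl donor supply (15 tested, 2 higher and 1 lower). Chka, which starts the CDP-choline pathway, had 6.65, 7.911 and 7.653 TPM, and Mat1a, which makes the methyl donor used by PEMT, had 2633, 2424 and 2643 TPM (knockdown adjusted p = 0.477 and 0.704 in limma). In rescue minus control, Mlxipl, Abcb1a and Pla2g6 were the genes of the 8 lists past that threshold, beside 2.15% of all tested genes. In rescue minus knockdown, 0 genes of any of the 8 lists passed an adjusted p under 0.05 in limma, beside 0% of all tested genes. Of all tested genes 9.32% were higher and 1.4% lower there at an unadjusted p under 0.05. At an unadjusted p under 0.05 the numbers of higher and lower genes there were 1 and 0 of the LXR receptors and partners, 0 and 0 of the LXR-responsive genes, 2 and 0 of the ABC transporters, 3 and 1 of the HDL list, 1 and 1 of the CDP pathways, 1 and 0 of the phosphatidylserine and phosphatidylinositol list, 1 and 0 of the acyl list and 2 and 0 of the methyl donor list.

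**Figure D4:**
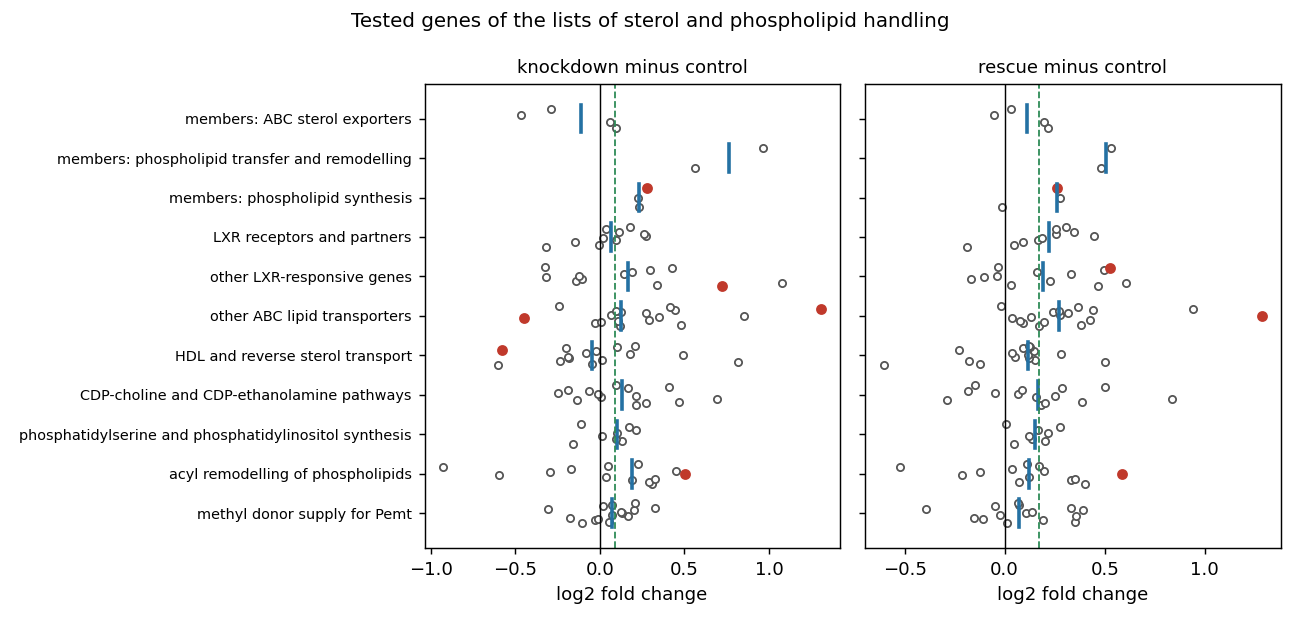
Log2 fold change (horizontal axis) of each tested gene of the member groups and 8 pathway lists, for knockdown minus control and rescue minus control. Filled points have an adjusted p under 0.05, short bars are list medians and the dashed line is the median of all tested genes (0.09 and 0.17).

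Markers of other liver cell types were read beside these values. The 10 markers of Kupffer cells and macrophages summed to 684.9 to 1066 TPM in controls, 680.0 to 1068 after knockdown and 781.3 to 960.8 in the rescue, with 0 of 10 past an adjusted p under 0.05 in limma after knockdown and 1 higher and 1 lower at an unadjusted p under 0.05. Clec4f was at 59.21, 56.0 and 54.8 TPM and Adgre1 at 53.14, 62.36 and 58.94. The lower marker was Marco, at 20.21, 9.736 and 10.13 TPM (knockdown log2 -1.04, unadjusted p = 0.0222 in limma). The higher was Lyz2, at 139.7, 167.4 and 143.5 TPM (0.26, unadjusted p = 0.00474 in limma). The sum of the 10 markers varied with Abcg1 from mouse to mouse. Knockdown 1, control 2 and control 3 were the lowest in both, at 680.0, 684.9 and 741.8 TPM of the markers, and knockdown 2 was the highest in both. The part of these cells in the Abcg1 level was not tested.

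The 6 sinusoidal endothelial markers summed to 103.9 to 181.6 TPM in controls, 174.6 to 228.4 after knockdown and 166.4 to 201.9 in the rescue. After knockdown 3 of 6 were higher and 0 lower at an unadjusted p under 0.05, beside 15.4% and 4.8% of all tested genes. The list's median log2 fold change was 0.43, against 0.09 for all tested genes. Past the adjusted threshold 1 of 6 rose, Stab2, at 34.9, 50.91 and 45.75 TPM (log2 0.54, adjusted p = 0.0476 in limma, under 0.05 in 8 of 22 alternatives). The mean sum of the 6 markers was 146.1 TPM in controls, 194.4 after knockdown and 179.8 in the rescue, higher in the groups in which Lpcat3, Pltp and Pcyt2 had higher means. Single mice did not all follow this. Control 1, at 181.6 TPM of the markers, was above knockdown 1 (179.0) and knockdown 3 (174.6). Its Pcyt2 (213.0), Lpcat3 (87.49) and Pltp (84.67) were below those of both. Control 2 was lowest of the controls in the sum (103.9) and in Lpcat3 (64.23). Knockdown 2 was highest of the knockdown mice in both (228.4 and 156.5). The part of these cells in those values was not tested. The ranges of the other marker sums, like those of the endothelial sum, overlapped between controls and knockdown. They were 84350 to 119200 and 87160 to 102800 TPM for 8 hepatocyte markers (76430 to 90500 in the rescue), 98.04 to 143.8 and 116.9 to 142.3 for 6 stellate cell markers, 104.7 to 242.5 and 122.3 to 273.3 for 5 monocyte and neutrophil markers (97.0 to 143.1 in the rescue), 68.06 to 105.0 and 56.88 to 140.3 for 5 cholangiocyte markers, and 26.04 to 74.86 and 22.25 to 54.7 for 6 T and NK cell markers. After knockdown 0 of the 8 hepatocyte markers were higher and 2 lower at an unadjusted p under 0.05. Of all tested genes, 15.4% were higher and 4.8% lower. The 2 were Tat (log2 -0.798, adjusted p = 0.131 in limma) and Apoa1 (-0.602, adjusted p = 0.115 in limma), which is also on the HDL list. Their log2 values in rescue minus control were -0.815 and -0.601 (adjusted p = 0.11 and 0.104 in limma). Within a list the markers did not all differ in 1 direction. Krt19 of cholangiocytes was at 1.559, 1.427 and 1.814 TPM in control, knockdown and rescue, and Sox9 of the same list at 5.181, 8.501 and 7.238 (knockdown log2 0.64, unadjusted p = 0.021 in limma). Cd3e of T cells was at 2.517, 3.006 and 3.369 TPM, and Gzmb of the same list at 9.228, 6.01 and 11.76. In rescue minus knockdown, where Abcg5, Abcg8 and Pemt reached an unadjusted p under 0.05, so did Gzmb (log2 1.03), S100a8 (-0.78) and S100a9 (-0.84), with adjusted p of 0.411, 0.421 and 0.404 in limma. The hepatocyte markers Serpina1c (0.28) and Ttr (-0.39) and the macrophage marker Lyz2 (-0.22) did too, with adjusted p of 0.436, 0.458 and 0.402 in limma. The part of these cells was not tested. Sox9, Gzmb, S100a8, S100a9, Serpina1c, Ttr, Tat, Apoa1, Lyz2 and Marco were named after their values were seen. Lrat of stellate cells was at 11.28, 14.35 and 12.01 TPM. No marker was at 0 in all mice.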

How the data were processed

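Liver RNA of 12 mice was sequenced as strand-specific libraries. The authors deposited gene values as TPM. The submitters' processing notes name fastp 0.23.2, FastQC 0.11.8, HISAT2 2.2.1.0, featureCounts of Subread 2.0 and the build GRCm38.p6. The strand setting of the counting is not given in the sources used here. All 37 mitochondrial features were at 0, and 24575 features were at 0 in all mice. TPM keeps no depth, so no counting interval or detection limit is given. Groups were taken from the sample labels, and replicate numbers were used only to name mice, except in 1 alternative fit. Within groups, libraries correlated at 0.9641 to 0.986, and none was a duplicate.

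Values were fitted as log2(TPM + 1) with limma 3.58.1 in R 4.3.3, 3 groups in 1 model without covariates and with a mean-variance trend, for 16378 genes whose mean reached 1 TPM. Fold changes are on the log2(TPM + 1) scale and understate those of low genes. A gene passed at a Benjamini-Hochberg adjusted p under 0.05, or, by the fold threshold, at an unadjusted p under 0.05 and a log2 difference over 0.5 either way. All tests were two-sided. The fit was tested on simulated data first. Python 3.11.15 and scipy 1.17.1 gave permutation tests, and matplotlib 3.10.9 the figures. Promoter windows came from RefSeq on GRCm38.p6.

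Named genes are the 9 members, list genes with an adjusted p under 0.05, the 3 genes most similar to each member, defining markers of cell types, and Nr1h2, Nr1h3, Rxra, Abcb4, Chka and Mat1a. The members and lists were chosen with earlier results of these data known. The members' fold changes and counts were recomputed under 22 alternatives, the correlations under 16 of them (scaling, pseudocount and mice left out), and, added after seeing the data, the called list genes under all. For scaling these were median-of-ratios size factors, quantile normalization, and a total that leaves out the 20 highest genes. For the values they were a pseudocount of 0.1, a minimum mean of 5 TPM, and all genes unfiltered. For the model they were a fit of the compared groups alone, a constant prior variance, weights per library, and a replicate block. Each of the 12 mice was also left out in turn. No column was left out.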

Additional observations from a re-analysis of the deposited data

How the results depend on the processing

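Among refits of the members' log2 fold changes, 533 kept their direction and side of the threshold, 17 passed it newly, 23 no longer passed it and 21 changed direction, and the causes were not tested. Members past an adjusted p under 0.05 in knockdown minus control numbered 1 as fitted, 2 with a mean TPM of at least 5, median-of-ratios scaling or array weights, 3 without the 20 highest genes, 1 with quantile normalization, where it was Abcg5 lower and no longer Pcyt2, 0 with only the 2 groups compared, no trend or a replicate block, and 0 to 3 when a mouse was left out. In rescue minus control they numbered 1 as fitted, 0 with no filter, median-of-ratios scaling, quantile normalization, rescaling without the 20 highest genes, no trend or a replicate block, 3 with only the 2 groups compared or array weights, and 0 to 2 when a mouse was left out. Members past the fold threshold numbered 1 to 3 in knockdown minus control, 0 to 2 in rescue minus knockdown and 0 to 2 in rescue minus control when a mouse was left out, and 1 in rescue minus control with only the 2 groups compared or array weights.

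Over all tested genes, the genes past an adjusted p under 0.05 in rescue minus control fell from 352 to 11 with median-of-ratios scaling, 11 with quantile normalization, 12 without the 20 highest genes, 9 with no filter, 35 with no trend and 71 with the block, and numbered 1693 with only the 2 groups compared and 3184 with array weights. In knockdown minus control 529 became 33 with only the 2 groups compared, 236 with no filter and 344 with no trend, and 593 to 683 under the 3 scalings and a mean TPM of at least 5. Leaving out a mouse gave 165 to 1057 genes in knockdown minus control and 3 to 1068 in rescue minus control. Over the 3 comparisons, the deviations of same-numbered mice correlated at r = -0.244 to 0.154, and those of different-numbered mice at -0.175 to 0.175. No shared deviation by number was seen. These values cannot show whether mice of a number were handled together.

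Direction changed for Abca1 (-0.015) and Abcg1 (-0.041) in knockdown minus control with median-of-ratios scaling, and for Abcg1 (-0.018) with quantile normalization. In rescue minus knockdown Pcyt1a became -0.039, -0.025 and -0.013 with median-of-ratios scaling, quantile normalization and rescaling without the 20 highest genes, and in rescue minus control Abcg8 became -0.172, -0.103 and -0.062. With array weights Abcg8 was -0.026 and Pemt 0.082 in rescue minus control. Leaving out a mouse gave Abcg1 -0.077 to 0.242 in knockdown minus control and -0.046 to 0.263 in rescue minus knockdown, where Lpcat3 ranged from -0.179 to 0.057 and Pcyt2 from -0.029 to 0.006, and in rescue minus control gave Pemt -0.094 to 0.045 and Abcg8 -0.014 to 0.098. The pooled r of Pcyt1a with Pcyt2, which spans separate clusters, was 0.832 as fitted and 0.54 with median-of-ratios scaling (permutation p = 0.0702), and that of Pemt with Pcyt1a was 0.151 (permutation p = 0.639), with -0.27 to 0.0287 when a mouse was left out.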

Other observations

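The SD of log2(TPM + 1) over 4 mice was lower in the rescue than after knockdown for 9 of the 9 members, beside 81.1% of all tested genes, and lower than in controls for 8 of 9, all but Abcg8, beside 72.3%, so most tested genes shared this order. The median SD of the members was 0.16 in controls, 0.23 after knockdown and 0.07 in the rescue, against 0.19, 0.24 and 0.13 for all tested genes. Lpcat3 and Pltp showed the contrast most plainly, with SDs of 29.39 and 53.44 TPM after knockdown and of 4.658 and 7.034 TPM in the rescue. No test of these spreads was run, and members share their libraries with all other genes.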
